A study of Mus musculus with 4 samples.

Results

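The guidance genes of the mouse ovarian cancer line BR5FVB1-Akt were compared between cells given decitabine and control cells. They comprise the ephrins and their Eph receptors, the semaphorins with their plexin and neuropilin receptors, the Slits with their Robo receptors, and the netrins with the receptors Dcc, neogenin and Unc5. Members were chosen by gene symbol, from array rows with 1 symbol in the platform table. This gave 70 rows of 67 genes among the 22180 genes tested. The list was set with earlier results of these data known, so its shares below were not tested against those of all genes. Where a gene had several rows, the one with the highest mean value stood for it. One of the 67, Unc50, matches the pattern of letters only and is not a netrin receptor, so 66 genes remained as guidance genes proper.

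These families were named for steering growing axons, and they also act in blood vessels, epithelia and tumours. An ephrin is held in the membrane of one cell and binds an Eph receptor tyrosine kinase on its neighbour, and both cells can respond. Class 3 semaphorins are secreted and mostly signal through a neuropilin and a plexin-A, while most semaphorins of the other classes stay in the membrane and bind plexins directly. Slits and netrins are secreted proteins of the extracellular matrix that repel or attract cells through Robo, Dcc, neogenin and Unc5. Many of these pathways end on small GTPases that set the actin cytoskeleton.

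The 2 control samples and the 2 samples given 10 uM decitabine for 72 h were each hybridised to 1 Affymetrix Mouse Gene 2.0 ST array. Decitabine is a cytidine analogue that is built into replicating DNA, where it traps DNA methyltransferases and so lowers methylation. The labels name 1 cell line, number the samples of each group as biological replicates, and state neither the line's genotype, the culture of each replicate nor what the control cells received. P-values therefore measured the spread between these 4 arrays, and their number limited the precision. Values in the deposited table were taken to be on a log2 scale, from their range, so each fold change depends on that. A value is the brightness of a gene's own probes, so the tests compared arrays and never genes with each other. Where a level is set beside the median of the genes tested, 5.23, it is a rough guide only.

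Over all 41345 rows the array medians lay between 4.60 and 4.66. Of 11 epithelial and ovarian surface markers 8 had means above the median of the genes tested, 5.23. Among them were Wt1 (10.82 in control and 10.54 in treated cells), Upk3b (11.97 and 11.77), Msln (6.48 and 7.34) and the keratins Krt18 (9.24 and 9.56), Krt19 (8.52 and 8.80), Krt8 (7.27 and 7.80) and Krt7 (6.80 and 6.89), while Epcam (4.65 and 4.88), Pax8 (3.48 and 3.61) and Muc16 (5.15 and 4.72) lay below it. Of 7 fibroblast markers 5 lay above it, with Dcn (11.76 and 11.79) and Pdgfra (10.89 and 10.61) among the bright ones, and Lum (2.60 and 2.89) and Fap (3.60 and 3.99) below. The mean over 8 endothelial markers was 4.20 to 4.27 on the control arrays and 4.38 to 4.43 with decitabine. Over 6 leukocyte markers it was 4.10 to 4.18 and 4.29 to 4.42, over 7 neuronal and glial markers 5.24 to 5.25 and 5.39 to 5.49, over 7 fibroblast markers 7.80 to 7.85 and 8.08 to 8.13, and over 11 epithelial and ovarian surface markers 7.22 to 7.28 and 7.38 to 7.46. The mean of each of these lists was thus higher on both decitabine arrays. In the limma fit with an intensity trend that is described below, Msln (0.86 ± 0.10), Krt8, Krt18 and Krt19 rose and Wt1 and Upk3b fell, Thy1 (1.48 ± 0.17) rose and Pdgfra fell, and Tubb3 (0.81 ± 0.11) and Cd68 (0.45 ± 0.10) rose, with 0 of the endothelial markers called. The mean log2 fold change of each list was smaller without its most changed marker. For fibroblast markers it was 0.08 in place of 0.28 without Thy1. For epithelial and ovarian surface markers it was 0.10 in place of 0.17 without Msln. Without Tubb3 the neuronal and glial list was at 0.09 in place of 0.20. Leaving out Itgam put the leukocyte list at 0.16 in place of 0.22, and leaving out Cdh5 put the endothelial list at 0.13 in place of 0.16. The part of these markers in the results that follow was not tested. In such bulk RNA, fewer cells of a type and less RNA per cell cannot be told apart.

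The ephrin receptor gene Epha4 was higher with decitabine, and the guidance genes as a group moved in both directions. In limma with group as the only term and Benjamini-Hochberg adjustment over all genes, 1 of the 67 passed an adjusted p of 0.05 as higher and 0 as lower, where 0.131% and 0.0135% of all genes did. With an unadjusted p below 0.05 there were 9 higher members and 12 lower ones, which is 13.4% and 17.9% of them beside 7.34% and 6.97% of all genes. Both decitabine arrays lay above both control arrays for 16 members (23.9%, against 23.4% of all genes) and below them for 19 (28.4%, against 22.5%). The median log2 fold change of the members was −0.05, with 29 positive (50.7% of all genes were) and 38 negative, and their median size regardless of sign was 0.20, while over all genes these medians were 0.00 and 0.13.

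A second limma fit let the expected spread of a gene depend on its mean value (an intensity trend). With it 7 members rose and 8 fell at an adjusted p under 0.05, or 10.4% and 11.9% of the members, beside 3.68% and 3.6% of all genes. Those that rose were Epha4, Epha2, Efnb2, Sema3d, Sema3e, Sema4a and Ntn1, and those that fell were Efna2, Ephb6, Sema3a, Sema4c, Plxna4, Plxnb1, Slit3 and Neo1. This fit expects a larger spread of dim genes, and 40 of the 67 members had a mean above the median of the genes tested. When only genes above that median were fitted, without a trend, 7 of the 40 members were higher and 9 lower (17.5% and 22.5%, beside 5.73% and 5.55% of all such genes). Of the 15 genes, Epha4, Epha2, Efnb2, Sema3d and Slit3 passed in each of the 9 settings tried with the trend. These 9 settings include the fit that picked the 15 genes, and all reuse the same 4 arrays. How many of all genes passed in each of them was not counted. Where all rows of the arrays were fitted with the trend, 4 members rose and 1 fell, and the calls over the genes tested went from 817 higher and 798 lower to 114 and 51. Without control replicate 1 the counts with the trend were 4 and 2, and without control replicate 2 they were 5 and 2, while those over all genes were 222 and 116, and 216 and 183. Efna2, Ephb6, Sema3a, Sema4c, Plxnb1, Neo1, Sema4a and Ntn1 lost their call without either of these arrays, and Sema3e without the first. Without decitabine replicate 1 the counts were 5 and 7 (Sema4a, Ntn1 and Sema3a lost), and without decitabine replicate 2 they were 6 and 6 (Ntn1, Ephb6 and Plxnb1 lost). In the text below, "rose" and "fell" refer to the fit with the trend, log2 fold changes carry the standard error (SE) of the fit without it, and both adjusted p-values are named.

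**Figure D1:**
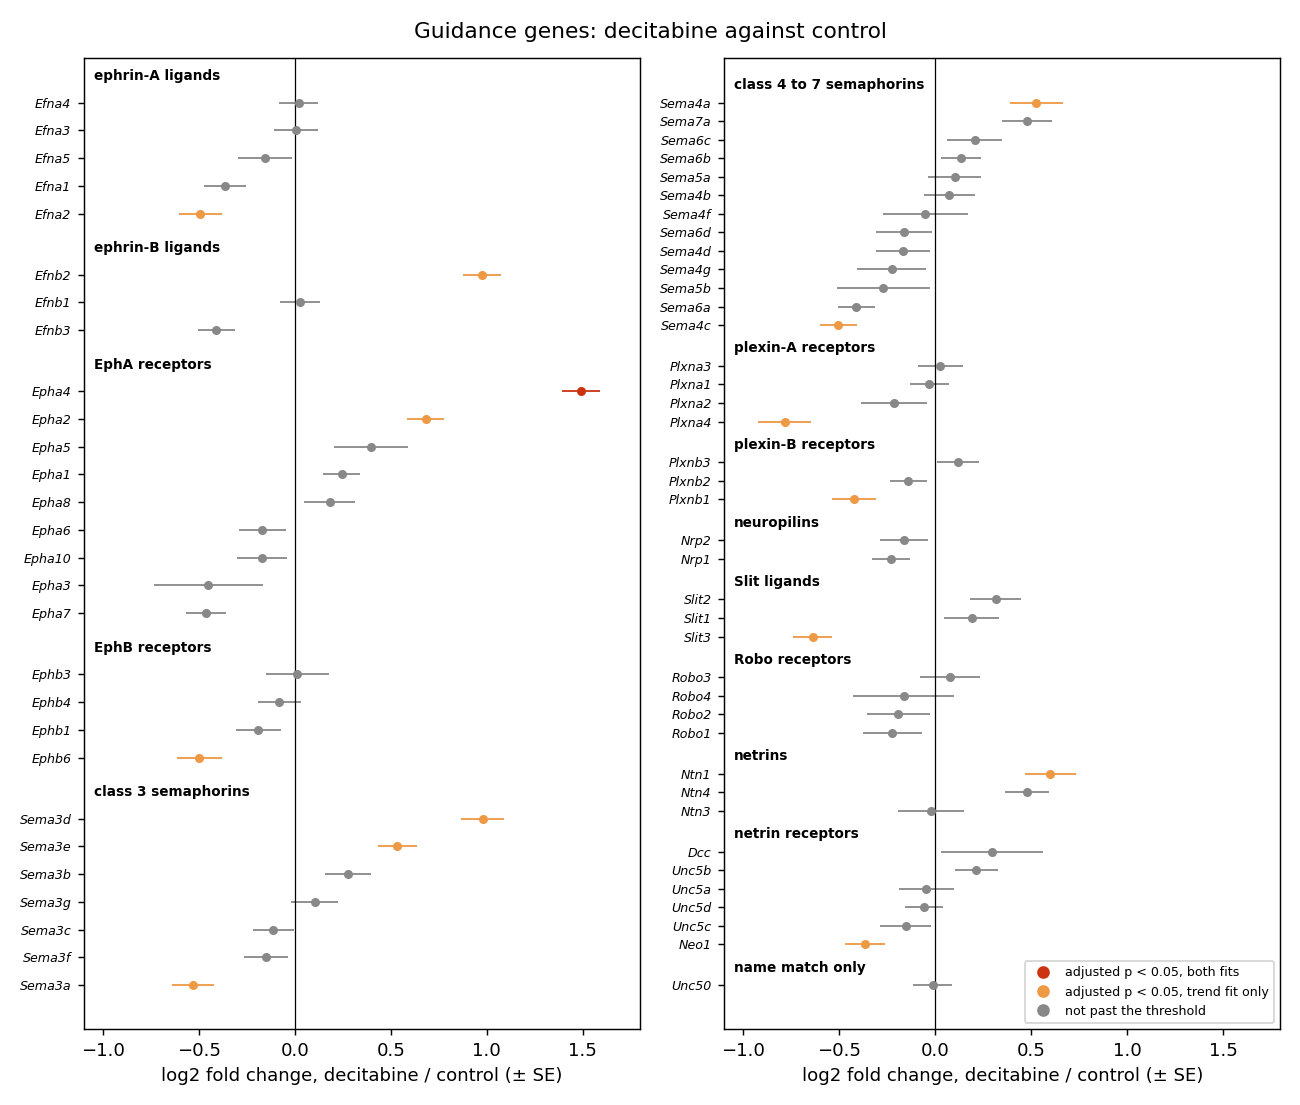
Log2 fold change of each of the 67 genes, decitabine over control, with bars of 1 SE from the limma fit without a trend (2 arrays per group), ordered by role. Epha4 stands at 1.49 and passed in both fits, and the other coloured points passed only with the intensity trend.

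Among the Eph receptors, Epha4 and Epha2 rose, and Ephb6 fell. Epha4 binds ephrins of both the A and the B class. Its values were 6.71 and 6.61 in control cells and 8.14 and 8.16 in treated cells (array row 17224661). Both treated values thus lay more than 1 log2 unit above both controls, and the replicates of each group were close. The log2 fold change was 1.49 ± 0.10 (SE, 2 arrays per group), a 2.81-fold difference (limma adjusted p = 0.0401, and 8.34e-06 with the trend). This call of the fit without a trend was lost when any 1 array was left out, which leaves 1 array in a group. It was also lost when all array rows were tested (limma adjusted p = 0.313). With 1 array left out, the log2 fold change ranged from 1.45 to 1.54.

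Epha2, a receptor of A-type ephrins found in many epithelia and tumours, was at 7.84 and 7.79 in control cells and at 8.50 and 8.49 in treated cells (row 17421033). The groups did not overlap, and the log2 fold change was 0.68 ± 0.10, or 1.60-fold (limma adjusted p = 0.102, and 3.75e-04 with the trend). Ephb6, whose kinase domain has no catalytic activity, went from 6.90 and 6.94 to 6.53 and 6.31 (row 17457807). Its 2 treated values differed more from each other than its controls did, and its log2 fold change was −0.50 ± 0.12 (limma adjusted p = 0.198, and 0.0226 with the trend). Epha7, at −0.46 ± 0.11, had both treated arrays below both controls and passed in neither fit (limma adjusted p = 0.191 and 0.0986). Its values were 5.44 and 5.30 in control cells and 4.88 and 4.92 in treated cells. Of the other Eph receptors, Epha1 (0.24), Epha5 (0.40), Epha8 (0.18) and Ephb3 (0.01) had positive and Epha3 (−0.45), Epha6 (−0.17), Epha10 (−0.17), Ephb1 (−0.19) and Ephb4 (−0.08) negative log2 fold changes, none of which passed in limma with or without the trend. The estimate for Epha3 was the least precise of the 67 genes, with an SE of 0.28. Its values of 4.65 and 5.28 in control cells and 4.22 and 4.81 in treated cells differed widely within each group, and the groups overlapped.

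The ephrin genes did not share a direction. Efnb2 encodes ephrin-B2, a transmembrane ligand of EphB receptors and of EphA4 that is known as a marker of arteries. It was at 9.31 and 9.33 in control cells and at 10.25 and 10.34 in treated cells (row 17507321). The treated values lay nearly 1 log2 unit above the controls, a log2 fold change of 0.98 ± 0.10, or 1.97-fold (limma adjusted p = 0.0638, and 1.18e-05 with the trend). Efna2, a ligand anchored to the membrane by a lipid, fell from 8.10 and 8.02 to 7.66 and 7.47 (row 17235243). The groups were separated, and its log2 fold change was −0.49 ± 0.11 (limma adjusted p = 0.194, and 0.00787 with the trend).

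Further ephrin genes had separated arrays and an unadjusted p under 0.05 without passing in either fit. They were Efna1, a ligand of Epha2, with 6.75 and 6.64 against 6.40 and 6.26 (−0.37 ± 0.11), and Efnb3, with 6.09 and 6.15 against 5.72 and 5.70 (−0.41 ± 0.10). Their adjusted p-values in limma were 0.259 and 0.198 without the trend and 0.0827 and 0.0741 with it. The arrays overlapped for the remaining ligands, Efna3 (0.01 ± 0.11), Efna4 (0.02 ± 0.10), Efna5 (−0.16 ± 0.14) and Efnb1 (0.03 ± 0.11). Efna1, Efna3 and Efna4 follow each other on chromosome 3 with 0 protein-coding genes between them in the RefSeq annotation.

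The promoter windows of the receptor and the ligand with the largest differences among Eph and ephrin genes are shown. Their CpG dinucleotides are in capitals, because decitabine lowers DNA methylation. Both come from RefSeq on GRCm38.p6 and run from 250 bases before to 50 bases after the start of the gene, 5′ to 3′ on its own strand. The Epha4 window lies at chr1:77515039-77515338 on the minus strand and the Efnb2 window at chr8:8661193-8661492 on the minus strand.
Epha4: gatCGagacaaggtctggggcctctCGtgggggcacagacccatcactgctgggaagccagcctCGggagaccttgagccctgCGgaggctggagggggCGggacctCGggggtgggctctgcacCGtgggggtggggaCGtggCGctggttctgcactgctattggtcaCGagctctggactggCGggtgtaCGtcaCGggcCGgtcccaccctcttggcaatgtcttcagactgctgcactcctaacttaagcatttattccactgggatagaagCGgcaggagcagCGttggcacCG
Efnb2: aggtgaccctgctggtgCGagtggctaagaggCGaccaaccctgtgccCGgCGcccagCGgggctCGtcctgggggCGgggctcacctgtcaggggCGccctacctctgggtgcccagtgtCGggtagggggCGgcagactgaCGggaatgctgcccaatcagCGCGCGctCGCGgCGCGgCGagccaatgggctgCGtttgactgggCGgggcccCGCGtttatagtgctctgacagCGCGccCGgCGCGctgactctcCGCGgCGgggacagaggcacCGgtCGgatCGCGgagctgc
The first holds 17 CpG dinucleotides and the second 35. The arrays measured RNA, and the methylation of these sites was not measured.

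**Figure D2:**
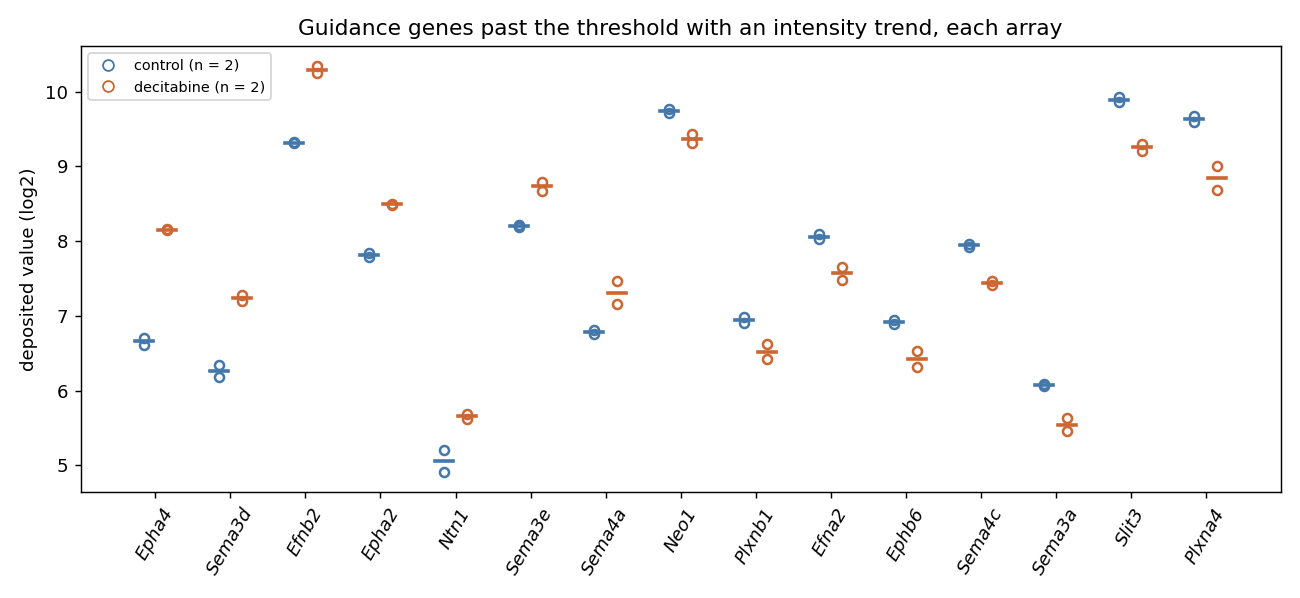
Deposited log2 values on each array for the 15 genes that passed the limma test with an intensity trend, ordered by log2 fold change. Open circles are arrays (2 per group) and bars are group means. For each gene the 2 groups do not overlap, which follows largely from picking the genes by a test between these groups. Of all genes 23.4% had both decitabine arrays above both controls and 22.5% below. Epha4 shows the widest gap between group means, from 6.66 to 8.15.

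Of the 20 semaphorin genes, 3 rose and 2 fell with the trend, where 3.68% and 3.6% of all genes did. Without the trend 0 passed. The semaphorin genes of the secreted class 3 moved in both directions. Sema3d, expressed in the developing nervous and vascular systems, was at 6.34 and 6.18 in control cells and at 7.28 and 7.19 in treated cells (row 17434742). Both treated values lay clearly above both controls, a log2 fold change of 0.98 ± 0.11, or 1.97-fold (limma adjusted p = 0.0762, and 3.75e-04 with the trend). Sema3e, which binds Plxnd1 without a neuropilin, rose from 8.18 and 8.22 to 8.80 and 8.67 (row 17434813), by 0.53 ± 0.10 (limma adjusted p = 0.154, and 0.00184 with the trend). Its receptor gene Plxnd1 was at 0.11 ± 0.11, with an adjusted p of 0.702 in limma without the trend. Sema3a, the founding repellent of the class and a ligand of Nrp1, fell from 6.09 and 6.07 to 5.46 and 5.63 (row 17434764), by −0.53 ± 0.11 (limma adjusted p = 0.170, and 0.0332 with the trend).

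These 3 genes lie in a row on chromosome 5. Sema3d and Sema3a have 0 protein-coding genes between them and Sema3a and Sema3e have 3, so the gene that fell stands between the ones that rose. Sema3c, farther along the same chromosome, was at 10.26 and 10.35 in control cells and at 10.12 and 10.26 in treated cells, which overlap narrowly. Its difference was −0.11 ± 0.11, with a 95% confidence interval from −0.39 to 0.16. The remaining class 3 genes did not pass in either fit, with Sema3b at 0.28 ± 0.12, Sema3f at −0.15 ± 0.12 and Sema3g at 0.10 ± 0.12. Sema3b and Sema3f are also close, with 3 protein-coding genes between them on chromosome 9.

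**Figure D3:**
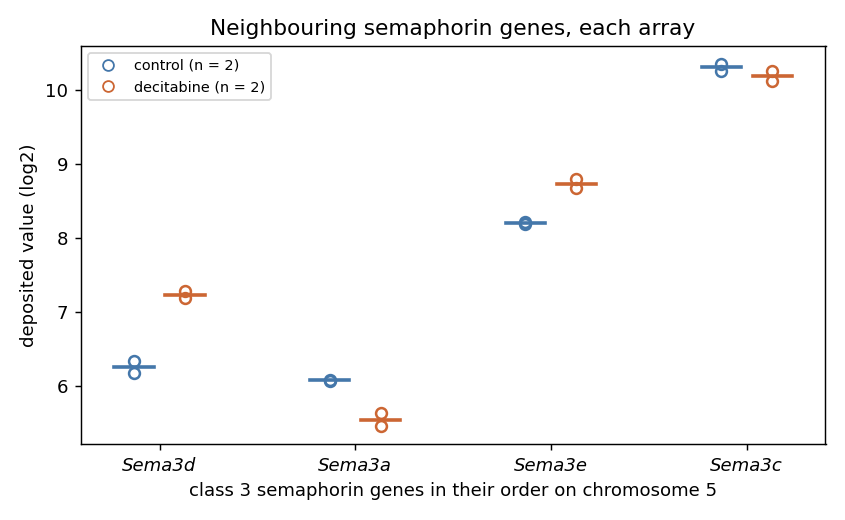
Deposited log2 values of the 4 class 3 semaphorin genes of chromosome 5 on each array, in their order along it (not to scale). Open circles are arrays and bars are group means (n = 2). Sema3d and Sema3e are higher with decitabine (0.98 and 0.53), Sema3a between them is lower (−0.53), and Sema3c differs by −0.11.

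The promoter windows of the adjacent genes Sema3d (chr5:12382916-12383215, plus strand) and Sema3a (chr5:13396534-13396833, plus strand) are printed because these neighbours differed in direction, again from RefSeq on GRCm38.p6 with CpG in capitals.
Sema3d: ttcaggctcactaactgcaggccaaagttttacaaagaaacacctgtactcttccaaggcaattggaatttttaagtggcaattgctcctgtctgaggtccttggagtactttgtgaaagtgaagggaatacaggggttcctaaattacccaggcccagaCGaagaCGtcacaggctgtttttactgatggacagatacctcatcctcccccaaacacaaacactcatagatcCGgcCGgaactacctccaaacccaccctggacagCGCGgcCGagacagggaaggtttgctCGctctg
Sema3a: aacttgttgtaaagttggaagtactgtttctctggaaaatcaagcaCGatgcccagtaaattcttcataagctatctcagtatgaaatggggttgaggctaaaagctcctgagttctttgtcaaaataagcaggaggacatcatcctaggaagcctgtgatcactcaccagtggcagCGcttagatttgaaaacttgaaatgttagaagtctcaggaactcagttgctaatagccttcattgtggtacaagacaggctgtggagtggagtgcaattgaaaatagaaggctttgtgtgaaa
The Sema3d window holds 8 CpG dinucleotides and the Sema3a window 2, so both lie among the poorer windows of the guidance genes, whose median was 19.

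Among the 13 semaphorins of classes 4 to 7, Sema4a rose and Sema4c fell. Sema4a, known for its part in immune cells and the retina, went from 6.75 and 6.81 to 7.46 and 7.16 (row 17406760), a log2 fold change of 0.53 ± 0.14 (limma adjusted p = 0.221, and 0.0199 with the trend). Decitabine replicate 1 was the higher of its group, and with the trend the call was lost without it or without either control array. Sema4c, a transmembrane ligand of Plxnb2, went from 7.97 and 7.92 to 7.47 and 7.41 (row 17222211), by −0.51 ± 0.10, and its replicates were close (limma adjusted p = 0.151, and 0.00407 with the trend). Sema7a, which is anchored by a lipid and binds integrins and Plxnc1, was higher on both treated arrays (5.09 and 5.34 against 4.81 and 4.66). Its difference of 0.48 ± 0.13 did not pass in either fit (limma adjusted p = 0.235 and 0.122). Sema6a was lower on both treated arrays, with 4.97 and 4.98 against 5.43 and 5.34 (−0.41 ± 0.10), and did not pass either (limma adjusted p = 0.204 and 0.138). The other 9 of these genes lay between −0.27 (Sema5b) and 0.20 (Sema6c), and the arrays of all but Sema6b overlapped.

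Of the 9 plexin and neuropilin receptor genes, 2 fell with the trend (22.2%, beside 3.6% of all genes) and 0 rose (beside 3.68%). Without the trend 0 passed. Negative log2 fold changes were found for 7 of them (77.8%, beside 49.3% of all genes), and their median was −0.16. Plxna4, a receptor of class 3 and class 6 semaphorins, was at 9.59 and 9.67 in control cells and at 9.004 and 8.689 in treated cells (row 17465636). Its treated replicates differed more than the controls did and both lay below them, a log2 fold change of −0.78 ± 0.14, or 1.72-fold (limma adjusted p = 0.142, and 6.42e-04 with the trend). Plxnb1, the receptor of Sema4d, went from 6.90 and 6.99 to 6.62 and 6.42 (row 17522167), by −0.42 ± 0.12 (limma adjusted p = 0.234, and 0.0420 with the trend). That call was lost with the trend on arrays centred on their medians and when either control array or decitabine replicate 2 was left out. A second, dimmer row of Plxnb1 went the other way, with 3.85 and 4.21 in control cells and 4.38 and 4.32 in treated cells. The fall of this gene therefore rests on 1 of its 2 rows.

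Nrp1 and Nrp2, co-receptors of class 3 semaphorins, had both treated arrays below both controls without passing in either fit. Nrp1 was at 8.52 and 8.52 against 8.34 and 8.25, a difference of −0.23 ± 0.10 with a 95% confidence interval from −0.48 to 0.02. Nrp2 was at −0.16 ± 0.12. Plxnb2, the widely expressed receptor of Sema4c, was at 10.23 and 10.19 against 10.10 and 10.03, a difference of −0.14 ± 0.10 with an interval from −0.39 to 0.11. Plxna1 (−0.03 ± 0.10), Plxna2 (−0.22 ± 0.17) and Plxna3 (0.03 ± 0.12) had overlapping arrays, and Plxnb3 was at 0.12 ± 0.11. The dimmer row of Plxna1 was at −0.10 and that of Ephb1 at 0.28, against −0.19 for the row used for Ephb1.

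In the Slit and Robo pair, 1 ligand fell and the receptors did not pass the test. Slit3 was at 9.93 and 9.86 in control cells and at 9.30 and 9.21 in treated cells (row 17248426). Both groups were tight and did not overlap, and the log2 fold change was −0.64 ± 0.10, or 1.56-fold (limma adjusted p = 0.126, and 2.12e-04 with the trend). Slit2, the best known ligand of Robo1, was at 5.53 and 5.23 against 5.71 and 5.68, a difference of 0.31 ± 0.13 (limma adjusted p = 0.379 and 0.291). Slit1 was at 0.19 ± 0.14. Robo1 was at −0.22 ± 0.15, Robo2 at −0.19 ± 0.17, Robo3 at 0.08 ± 0.16 and the endothelial receptor gene Robo4 at −0.16 ± 0.26, each with overlapping arrays. All 4 Robo rows had means below the median of the genes tested, and no background level could be set, so whether these receptors were expressed was not determined.
The RefSeq promoter window of Slit3 on GRCm38.p6 (chr11:35121206-35121505, plus strand, CpG in capitals) is shown as that of the guidance gene with the largest fall among those with a window.
Slit3: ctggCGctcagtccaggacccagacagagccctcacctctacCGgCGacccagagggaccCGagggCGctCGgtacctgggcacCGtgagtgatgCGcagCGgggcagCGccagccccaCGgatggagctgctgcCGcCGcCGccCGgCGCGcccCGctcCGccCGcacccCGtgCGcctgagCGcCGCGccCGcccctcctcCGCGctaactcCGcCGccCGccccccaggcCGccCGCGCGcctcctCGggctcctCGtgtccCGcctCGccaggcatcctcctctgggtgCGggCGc
It holds 41 CpG dinucleotides.

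Among netrins and their receptors, Ntn1 rose and Neo1 fell. Ntn1, or netrin-1, is the secreted ligand of Dcc, neogenin and the Unc5 receptors. It was at 5.20 and 4.91 in control cells and at 5.62 and 5.69 in treated cells (row 17264405). The controls lay farther apart than the treated arrays, and the log2 fold change was 0.60 ± 0.13, or 1.51-fold (limma adjusted p = 0.187, and 0.0408 with the trend). With the trend, the call was lost when any 1 array was left out and on arrays centred on their medians. Neo1, neogenin, which also binds repulsive guidance molecules, went from 9.71 and 9.76 to 9.44 and 9.31 (row 17527735), by −0.37 ± 0.10 (limma adjusted p = 0.243, and 0.00735 with the trend). Without either control array the call of Neo1 with the trend was lost.

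Ntn4, a netrin of basement membranes that binds laminin, had both treated values above both controls (5.33 and 5.52 against 4.98 and 4.91). It passed in neither fit (0.48 ± 0.11, limma adjusted p = 0.200 and 0.0907). Ntn3 was at −0.02 ± 0.17, and the sign of that value changed when single arrays were left out. The receptor genes Dcc (0.30 ± 0.27), Unc5a (−0.05 ± 0.14), Unc5b (0.21 ± 0.11), Unc5c (−0.15 ± 0.13) and Unc5d (−0.06 ± 0.10) did not pass in either fit. Of these, Unc5b, at 8.72 and 8.88 against 9.07 and 8.96, alone had both treated arrays above both controls.

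Ligands and receptors were counted separately. Of 34 ligand genes 7 were higher and 7 lower with an unadjusted p below 0.05 in limma, and of 32 receptor genes 2 were higher and 5 lower. These are 20.6% each of the ligands and 6.25% and 15.6% of the receptors, beside 7.34% and 6.97% of all genes. With the trend 14.7% of the ligands rose and 11.8% fell, and 6.25% of the receptors rose and 12.5% fell. Of all genes 3.68% rose and 3.6% fell. The 2 groups differed in level, with 25 of the 34 ligands and 14 of the 32 receptors above the median of the genes tested. The median log2 fold change was 0.01 for ligands and −0.15 for receptors, and 21 of the 32 receptors (65.6%) were negative, as were 49.3% of all genes. The difference between these groups was not tested. For 62 of the 67 genes the 95% confidence interval of the fit without a trend lay within a 2-fold difference in either direction, against 21301 of the 22180 genes tested. The other 5 were Epha4, Efnb2, Sema3d and Plxna4, whose intervals also excluded 0, and Epha3, whose interval ran from −1.18 to 0.28.

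**Figure D4:**
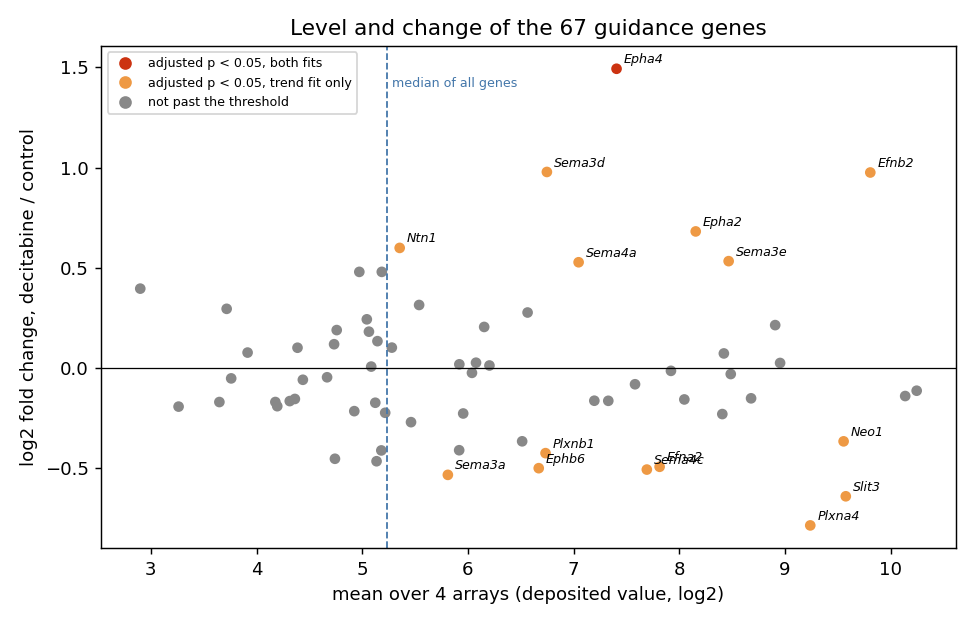
Mean deposited log2 value over the 4 arrays (x axis) against log2 fold change, decitabine over control (y axis), for the 67 genes. The dashed line is the median of the genes tested, 5.23. The 15 genes that passed with the intensity trend all lie to its right.

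Genes that act with or downstream of the guidance receptors were taken from a list of 75, of which 71 were measured. In limma without the trend 0 of the 71 passed, while 14 were higher and 8 lower by an unadjusted p below 0.05 (19.7% and 11.3%, beside 7.34% and 6.97% of all genes). With the trend 9 rose and 9 fell (12.7% each, beside 3.68% and 3.6% of all genes), and the median of the list was 0.03. Of the 71 genes 60 had a mean above the median of the genes tested. When only genes above that median were fitted, without a trend, 6 of the 60 were higher and 5 lower. Among all such genes 5.73% were higher and 5.55% lower. Flrt1, a membrane protein of a family that binds Unc5 receptors, fell from 8.69 and 8.65 to 7.77 and 7.85 (−0.86 ± 0.10, limma adjusted p = 0.0762, and 9.69e-05 with the trend). Dapk1, a death-associated kinase reported downstream of Unc5 receptors, fell from 8.16 and 7.94 to 7.01 and 6.55, the largest difference of the list at −1.26 ± 0.19 (limma adjusted p = 0.108, and 3.93e-04 with the trend). Rnd1, a small GTPase that binds plexins, rose from 5.95 and 5.97 to 6.62 and 6.69 (0.70 ± 0.10, limma adjusted p = 0.102, and 0.00369 with the trend).

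The other partner genes named were those with the next smallest p-values. The actin regulators Pak3 (0.50 ± 0.11) and Limk2 (0.46 ± 0.10), which act in the pathway to cofilin, rose with the trend, as did the kinases Fyn (0.46 ± 0.10), which relays ephrin and semaphorin signals, and Abl2 (0.43 ± 0.10). Ptk7, a pseudokinase that cooperates with plexins and Wnt receptors, fell (−0.48 ± 0.11). Their adjusted p-values in limma lay between 0.172 and 0.197 without the trend and between 0.00419 and 0.0415 with it.

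Promoter windows were found for 57 of the 67 members, 73 windows in all, since some genes have several. They held a median of 19 CpG dinucleotides (2 to 56), beside 14 in the 18791 windows of protein-coding genes tested. Fewer than 5 were found in 8 of the 73 windows (10.96%), beside 26.0% of the windows of protein-coding genes. The 11 windows of members that were higher at an unadjusted p under 0.05 had a median of 11, the 12 of members that were lower had 29, and the other 50 had 17.5. Of the 11 windows 4 belong to Sema4a, with 7, 14, 5 and 4, and without them the median of the higher members was 17. No gene was left out of the lower or the other members, where some genes also have several windows. The median of 17 is therefore not comparable with theirs. Single genes also lay against the order of the medians. Sema3a, which was lower, had 2, and Efnb2, Ntn4 and Sema7a, which were higher, had 35, 31 and 23. Among the members without a window were Ntn1, which was higher, and Plxna4, Efnb3 and Sema6a, which were lower. No test was made.

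**Figure D5:**
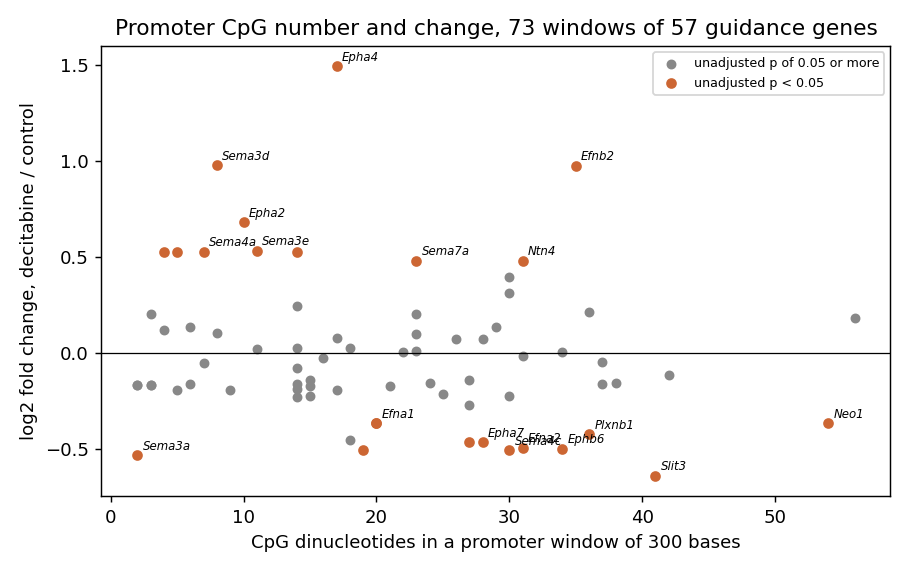
Number of CpG dinucleotides in each 300-base promoter window (x axis) against the log2 fold change of its gene (y axis), 73 windows of 57 genes. Genes with several windows appear several times. Coloured points had an unadjusted p under 0.05 in limma; those below 0 lie mostly to the right, with Sema3a at 2 as an exception, and those above 0 run from 4 to 35.

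Fixed motifs were also searched for in the windows on both strands. The core of interferon response elements, GAAA followed after any 2 bases by GAAA, was in 1 of the 73 windows (1.37%), in Sema6b. It was in 3.44% of all 32851 windows and in 3.37% of the 18791 windows of protein-coding genes tested. TGANTCA, the AP-1 motif, was in 3 of the 73 (4.11%, beside 7.81% and 7.04%), in Sema4c, Sema4d and Sema6b. CACGTG, an E-box bound by Myc and Max, was in 5 (6.85%, beside 7.15% and 8.2%), among them the window of Sema3e. None of the 3 motifs was in the windows of Epha4, Epha2, Efnb2, Sema3d, Sema3a or Slit3. These are matches of letters in 300 bases and describe no binding.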

How the data were processed

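Groups and replicate numbers came from the sample titles. The deposited table holds 1 value per array row and array, read as log2 expression from its range (0.55 to 13.3, none missing). Log base, summarisation and normalization are not given in the sources used here. Of 41345 rows, 23521 had 1 platform symbol, 1814 several and 16010 none. The 23521 gave 22180 genes, each by its row with the highest mean, with no filter on dim probes. All 67 members matched a RefSeq gene of GRCm38.p6. Each gene's values entered limma 3.58.1 under R 4.3.3 (lmFit, then eBayes; two-sided; group only; threshold adjusted p under 0.05). The fit was tested on simulated data. Members, lists and rules were chosen with earlier results of these data known. The genes named were all members past the threshold in either fit or with an unadjusted p under 0.05, the member with the highest mean in each role, and up to 8 partner genes past the threshold in either fit; other members named have their values given. Alternatives were other scalings, filters on level, an intensity trend, robust eBayes, a replicate block, other rows, other thresholds and leaving out each array. Those that kept the trend were added after seeing the data. Python 3.11.15 counted motifs, and matplotlib 3.10.9 made the figures.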

Additional observations from a re-analysis of the deposited data

How the results depend on the processing

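In the fit without a trend, 1 guidance gene was higher and 0 lower. The 1 higher gene became 4 with genes below the 25th percentile of level left out, 7 among genes above the median level, 7 with the intensity trend, 3 at an adjusted p under 0.10 and 9 at an unadjusted p under 0.05. It became 0 with the replicate block (adjusted p of Epha4 0.116), with all rows tested and when any 1 array was left out (0 to 0). The 0 lower genes became 9 above the median level, 8 with the intensity trend and 12 at an unadjusted p under 0.05. The calls over all genes moved too, from 29 higher and 3 lower to 151 and 64 above the 25th percentile, 635 and 616 above the median and 817 and 798 with the trend, and to 0 and 0 with the block, with all rows or without any 1 array. Quantile normalization, centring, robust eBayes and the mean of a gene's rows left both counts as they were. With the trend kept, the counts of 7 and 8 became 4 and 1 when all rows were fitted, and ranged from 4 to 6 and from 2 to 7 when 1 array was left out. With the replicate block and the trend they were 7 and 8. Among partner genes, 0 and 0 became 1 higher and 2 lower above the 25th percentile, 6 and 5 above the median and 9 and 9 with the trend. The members' median log2 fold change ranged from −0.08 to −0.02 over all settings run. Leaving out 1 array turned the sign of 18 of the 67 members, and this was not counted over all genes. Of the 18, 0 had passed in either fit. That was fixed beforehand, since genes whose 2 groups of arrays do not overlap cannot change sign in this way. Among the genes named by rule, those that turned were Ephb4 (−0.168 to 0.00595), Sema4b (−0.0446 to 0.190), Ntn3 (−0.221 to 0.173) and Unc50 (−0.0683 to 0.0401). The cause of these changes was not tested.

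The replicate numbers share no stated source, and the design had no block. Deviations of arrays with the same number correlated at r = −0.02 across all genes and 0.15 across the 67 members. Signal over background could not be set, since scanner files were not used here.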

Other observations

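Some genes resemble the guidance genes in name only or lie beside them, and their values, looked up after the data were seen, belong to no comparison above. Plxna4os1, transcribed antisense to Plxna4, was at 4.16 and 4.05 in control cells and at 4.17 and 4.44 in treated cells (log2 fold change 0.20 ± 0.13, limma adjusted p = 0.679 with the trend). The 6 Slitrk genes, which encode neuronal adhesion proteins with leucine-rich repeats like those of Slits, lay between −0.10 (Slitrk1) and 0.14 (Slitrk2). Unc5cl, a relative of the Unc5 receptors, was at −0.03 ± 0.16.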
